A study of Mus musculus with 12 samples.

Results

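Gene expression was compared between SAMP8 and SAMR1 astrocyte cultures that had both received serum of calorie-restricted rats (P8CR-R1CR). The comparison uses 6 of the 12 samples of the series, 3 of SAMP8-CR and 3 of SAMR1-CR. Of the 24613 probes of the array, it takes the 10680 that were detected at a p under 0.05 in every array of SAMP8-CR or in every array of SAMR1-CR. These probes represent 7913 of the array's 15967 genes, each read from its brightest kept probe.

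SAMP8 is the senescence-accelerated prone mouse strain and SAMR1 the senescence-resistant control strain. In both groups, primary cultures were prepared from the cerebral cortex of mice of 2 days and kept for 21 days, and 10% heat-inactivated CR serum was then added to the medium for 48 h. The other samples of the series, SAMP8-AL and SAMR1-AL, received serum of rats fed ad libitum in the same way, and 2 of each are used here. All sera came from rats, while the cells came from mouse pups, so neither strain was itself calorie-restricted or aged. By the submitters' description, the cultures of both strains held 85 to 90% astrocytes, 10 to 15% microglia and 0.1 to 1% oligodendroglia, so each sample is a mixture. The study describes 3 independent experiments, and no label says which animals or litters a sample came from.

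Astrocytes take up glutamate, buffer ions, supply neurons with metabolites and shape the extracellular matrix. Microglia, the macrophages of the brain, carry receptors for antibody, complement and microbial products and are a usual companion of astrocytes in primary cultures. Because the strains are separate inbred lines, a difference in transcript level and a base difference under a probe cannot be told apart on these arrays.

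The data are bead intensities of Illumina arrays, here as normalised log2 values, in which 0 is the mean of all probes of an array and 1 unit is about a doubling of the signal. Between 43.0% and 46.7% of the probes were detected on the 6 arrays, with median intensities of 89.3 to 123, and precision is limited by how few arrays there were. SAMP8-CR replicates 2 and 3 had a lowest intensity of 42.4 and 42.9, against 7.03 in SAMP8-CR replicate 1 and 7.01 to 8.19 in SAMR1-CR. No label names this division into array sets. The astrocyte markers Slc1a3, a glutamate transporter, and Gfap, the intermediate filament of astrocytes, were detected on all 6 arrays, but Slc1a2 on none. Mbp and Mog of myelin, Dcx of young neurons and Pecam1 of endothelium were detected on none. Other markers of these lineages, such as Olig2, Cnp, Tubb3, Map2, Flt1 and Eng, were detected on all 6. Detection sufficed for a test in 15 of 17 astrocyte, 7 of 16 oligodendrocyte lineage, 8 of 17 neuron and 6 of 17 endothelial markers.

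In P8CR-R1CR, 174 probes were higher and 172 lower in SAMP8 at an adjusted p under 0.05 (limma, Benjamini-Hochberg), which is 3.24% of those tested, and 1779 had an unadjusted p under 0.05. Counted by gene, 127 were higher (1.6% of those tested) and 124 lower (1.57%), together 3.17%, the shares beside which the list counts below stand. In each of these 251 genes the 3 SAMP8-CR samples lay apart from the 3 SAMR1-CR samples, as they did in 19.8% of all tested genes. The changes were of moderate size, with a median of 0.856 on the log2 scale, and 44 genes were higher and 50 lower by at least 1. With the replicate numbers as a block, which pairs the samples, 271 probes were higher and 244 lower. With the array set as a block, 91 were higher and 82 lower, of which 137 were among the 346. Within the first array set, where SAMP8-CR is 1 sample assumed to vary like the others, 69 were higher and 26 lower.

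The gene that stood furthest apart was Fcer1g, the gamma chain through which several Fc receptors signal. Its normalised log2 intensity was 3.05, 3.52 and 2.85 in the SAMP8-CR samples, against -0.95, -0.82 and -1.02 in the SAMR1-CR samples. It was detected in all 3 SAMP8-CR samples and in no SAMR1-CR sample, so that it was at least 12.5-fold higher in SAMP8 (adjusted p = 1.14e-07 from limma). This bound sets the SAMP8-CR mean against the lowest detected signal of the SAMR1-CR arrays, and other bounds below are of the same kind. The first 30 of the 50 bases of its array probe, shown because this signal carries the largest difference, are these.
Fcer1g: gaacagacgtgcttggctgcattcttttcc
The receptors that bind antibody moved the other way. Fcgr3, the low-affinity receptor that uses this chain, had 1.41, 1.71 and 1.67 in SAMP8-CR, against 3.01, 3.85 and 3.29 in SAMR1-CR (log2 fold change -1.79 ± 0.21 SE, adjusted p = 0.000296). Fcgr2b, the inhibitory receptor, had 0.09, 0.22 and 0.05 in SAMP8-CR, against 1.85, 1.52 and 1.34 in SAMR1-CR, and fell by 1.45 on the log2 scale. Fcgr4, another activating receptor, had 0.12, 0.63 and 0.17 in SAMP8-CR, against 1.72, 2.20 and 1.25 in SAMR1-CR, and fell by 1.41 (adjusted p 0.00026 for Fcgr2b and 0.00318 for Fcgr4). No SAMP8-CR value of these 3 genes reached the lowest SAMR1-CR value. Fcgr1, the high-affinity receptor, fell by 0.42 (adjusted p = 0.0234, but 0.0826 to 0.11 without SAMP8-CR replicate 1 or 3, and 0.17 with a block for array set). Tyrobp, an adaptor of other microglial receptors, had a log2 fold change of -0.85 (adjusted p = 0.0682), and Fcgrt, the transport receptor for antibody, one of 0.43 (adjusted p = 0.36). Of the 8 tested genes of Fc receptors and their adaptors, 1 was thus higher and 4 were lower, against 1.6% and 1.57% of all tested genes.

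Fcgr2b, Fcgr4 and Fcgr3 also follow each other along chromosome 1 among the tested genes, with Fcer1g in the same region. Fcer1g is not their direct neighbour among the tested genes. The promoters of the 4 genes, taken from RefSeq on GRCm38.p6, are printed because these genes of 1 region differed in direction. Capitals mark GAGGAA on either strand (TTCCTC where it lies on the other strand), the core of sites of PU.1, a transcription factor of macrophages and microglia encoded by Spi1.
Fcgr2b, chr1:170976022-170976321, minus strand: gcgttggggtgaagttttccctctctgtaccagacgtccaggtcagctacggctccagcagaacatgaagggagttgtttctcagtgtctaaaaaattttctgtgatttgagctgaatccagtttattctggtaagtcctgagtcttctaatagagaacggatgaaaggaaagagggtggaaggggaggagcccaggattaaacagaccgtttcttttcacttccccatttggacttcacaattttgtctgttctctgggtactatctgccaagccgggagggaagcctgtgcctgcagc
Fcgr4, chr1:171018676-171018975, plus strand: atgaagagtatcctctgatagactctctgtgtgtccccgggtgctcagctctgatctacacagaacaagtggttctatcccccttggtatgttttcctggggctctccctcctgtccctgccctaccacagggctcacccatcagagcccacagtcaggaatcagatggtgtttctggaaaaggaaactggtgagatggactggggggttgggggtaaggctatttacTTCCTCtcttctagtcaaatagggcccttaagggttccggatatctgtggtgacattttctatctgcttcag
Fcgr3, chr1:171059354-171059653, minus strand: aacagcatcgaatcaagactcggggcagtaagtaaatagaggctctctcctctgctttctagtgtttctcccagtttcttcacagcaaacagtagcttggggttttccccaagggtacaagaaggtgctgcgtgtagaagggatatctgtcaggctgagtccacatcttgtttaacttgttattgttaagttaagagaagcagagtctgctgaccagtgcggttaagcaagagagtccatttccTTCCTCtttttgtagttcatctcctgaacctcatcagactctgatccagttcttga
Fcer1g, chr1:171234300-171234599, minus strand: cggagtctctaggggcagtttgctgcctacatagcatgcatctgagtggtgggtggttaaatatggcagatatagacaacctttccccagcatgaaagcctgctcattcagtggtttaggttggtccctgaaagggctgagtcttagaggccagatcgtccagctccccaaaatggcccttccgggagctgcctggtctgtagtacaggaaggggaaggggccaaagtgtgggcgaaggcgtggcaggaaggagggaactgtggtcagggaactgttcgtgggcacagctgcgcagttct
The letters were found once in the windows of Fcgr4 and Fcgr3 and not in the windows of Fcgr2b and Fcer1g. Over all genes with a RefSeq promoter, and 1 promoter taken for each, they were present in 40 of 86 genes lower in SAMP8 (46.5%), 24 of 108 genes higher in SAMP8 (22.2%), and 1696 of 6477 tested genes (26.2%). The share over all 27025 promoters of the same length was 28.3%. Among the microglia and macrophage markers described below, 17 of 21 had the letters (81%), and of those lower in SAMP8 10 of 12 (83.3%). How far these markers make up the share among the lower genes was not tested. A match of letters is a description and shows no binding. The transcript of PU.1 itself, Spi1, had -0.30, -0.03 and 0.16 in SAMP8-CR, against 0.20, 0.22 and 0.18 in SAMR1-CR (log2 fold change -0.26, adjusted p = 0.532).

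Markers of microglia and macrophages were lower in SAMP8 as a group. Of 31 tested members 17 were lower and 0 higher past the threshold, where 1.57% of all tested genes were lower. The median log2 fold change was -0.85, against 0.03 over all genes. In 25 members the SAMP8-CR samples all lay below the SAMR1-CR samples, which held in 8.61% of all genes. The summed linear level of the list, with each gene relative to the mean of its array, was 165 to 216 in SAMP8-CR and 321 to 409 in SAMR1-CR, without overlap. In RNA of a mixed culture, fewer microglia and less RNA per microglial cell cannot be told apart. An earlier analysis of these data had already named 6 of the members, and without them the count was 11 of 25, with a median of -0.80.

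**Figure D1:**
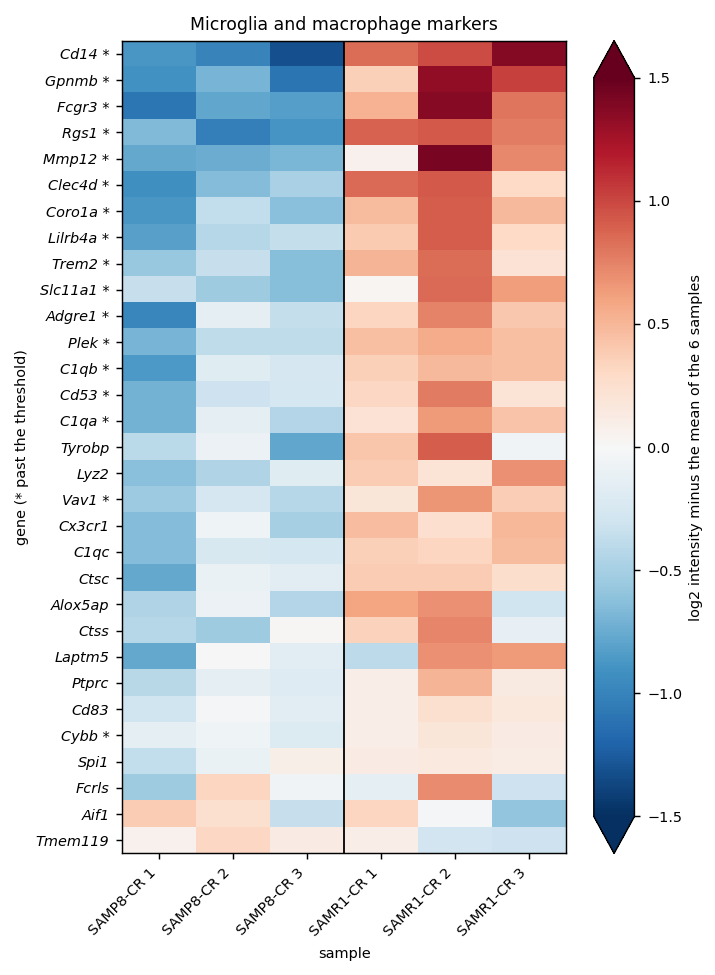
Microglia and macrophage markers by sample. Colour shows the normalised log2 intensity minus the gene's mean over the 6 samples, with the 3 SAMP8-CR samples left of the line and the 3 SAMR1-CR samples right of it; a star marks the 17 genes past the threshold. Most rows are blue on the left and red on the right, while Aif1, Tmem119 and Fcrls at the foot show no such split.

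Cd14, the co-receptor for bacterial lipopolysaccharide, had 1.62, 1.49 and 1.17 in SAMP8-CR, against 3.32, 3.46 and 3.86 in SAMR1-CR, and fell by 2.12 on the log2 scale (SE 0.23, adjusted p = 0.000179). Gpnmb, a glycoprotein of lysosome-rich macrophages, had 2.95, 3.17 and 2.76 in SAMP8-CR, against 4.22, 5.20 and 4.89 in SAMR1-CR, and fell by 1.81 (adjusted p = 0.00075). Rgs1, a brake on chemokine receptor signalling, had 0.31, -0.05 and 0.09 in SAMP8-CR, against 1.86, 1.90 and 1.74 in SAMR1-CR, and fell by 1.71 (adjusted p = 5.21e-05). In all 3 genes the groups were separated by at least 1 log2 unit between their nearest samples. Other probes of Gpnmb fell by 1.36 and 0.89 and the other probe of Rgs1 by 0.95, all past the threshold. Mmp12, the macrophage elastase, fell by 1.47 and Clec4d, a receptor for mycobacterial lipid, by 1.37. Coro1a, which binds actin in leukocytes, fell by 1.25, Lilrb4a, an inhibitory receptor, by 1.07 and Trem2, a receptor for lipids on microglia, by 1.04. With a block for array set, Mmp12 and Trem2 missed the threshold (adjusted p = 0.0657 for each).

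Genes of microglial identity gave a less even picture. Adgre1, which encodes the F4/80 antigen, had 2.44, 3.28 and 3.05 in SAMP8-CR, against 3.73, 4.16 and 3.82 in SAMR1-CR, and fell by 0.98 (adjusted p = 0.0386). Cx3cr1, the fractalkine receptor, had 1.06, 1.65 and 1.22 in SAMP8-CR, against 2.17, 1.96 and 2.20 in SAMR1-CR, which did not pass (log2 fold change -0.80, adjusted p = 0.127). Aif1, which encodes the microglial protein Iba1, had 0.86, 0.71 and 0.13 in SAMP8-CR, against 0.79, 0.46 and -0.12 in SAMR1-CR, with overlapping groups (log2 fold change 0.19, adjusted p = 0.753). Tmem119 had a log2 fold change of 0.33 and Fcrls one of -0.17 (adjusted p 0.195 and 0.797), while P2ry12 and Itgam were detected on none of the 6 arrays. The markers therefore differed among themselves, from -2.12 for Cd14 to 0.33 for Tmem119. Leaving out SAMP8-CR replicate 1 or SAMR1-CR replicate 2 reduced the 17 calls to 11 and 10. Adgre1, C1qa, C1qb, Cd53, Cybb, Slc11a1 and Vav1 were all lost without SAMR1-CR replicate 2, and all of them except Slc11a1 without SAMP8-CR replicate 1, with adjusted p of 0.0707 to 0.171 at the highest over the single samples left out. Cybb, Slc11a1 and Vav1 also missed the threshold with a block for array set (adjusted p 0.259, 0.222 and 0.112).

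Lists of receptors and effectors of phagocytes had the same direction, but they overlap with the markers above. Cd14, Clec4d, C1qa, C1qb and C1qc are also members of the microglia and macrophage list, so their values are not new here. Of 15 tested pattern recognition receptors 4 were lower and 0 higher, where 1.57% of all tested genes were lower. All 15 had a negative log2 fold change, while 4434 of all 7913 tested genes had a positive one. Tlr13 and Tlr7, sensors of microbial RNA, fell by 0.93 and 0.75 (adjusted p 0.0163 and 0.0232), beside Cd14 and Clec4d. Tlr4, which signals with Cd14, had a log2 fold change of -0.42 (adjusted p = 0.127). Of 10 tested complement genes, C1qa and C1qb, chains of the initiator C1q, fell by 0.86 and 0.87, and C1qc, the remaining chain, had -0.77 (adjusted p = 0.0671). The calls of Tlr13 and Tlr7 were lost without SAMP8-CR replicate 1 or 3, and that of Tlr7 also without SAMP8-CR replicate 2 or SAMR1-CR replicate 2 (adjusted p up to 0.0877). With a block for array set Tlr13, Tlr7 and C1qa did not pass (adjusted p 0.13, 0.143 and 0.0766), and C1qb passed at 0.0117.

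Genes of antigen presentation and chemokines were divided. Of 19 tested MHC and peptide loading genes 2 were lower (10.5%) and 0 higher, where 1.57% of all tested genes were lower. H2-DMb1, which helps to load MHC class II, had -0.54, -0.46 and -0.38 in SAMP8-CR, against 0.39, 0.47 and 0.30 in SAMR1-CR, and fell by 0.85 (adjusted p = 0.000454). H2-K1, a class I heavy chain that is highly variable between strains, fell by 0.87 (adjusted p = 0.0429, and 0.0514 to 0.149 without 1 of 8 samples in turn, and 0.398 with a block for array set), whereas H2-D1 had a log2 fold change of 0.43 (adjusted p = 0.0642) and B2m, the light chain, one of -0.25 (adjusted p = 0.53). Ccl4, a chemokine of activated macrophages, had 0.59, 0.74 and 0.70 in SAMP8-CR, against 1.49, 2.15 and 2.29 in SAMR1-CR, and fell by 1.30 (adjusted p = 0.00347). Its other probe had a log2 fold change of -0.40 and missed the threshold (adjusted p = 0.0846). Ccl2, which recruits monocytes and is also made by astrocytes, rose by 0.52 (adjusted p = 0.0483), a call that was lost without any of 9 samples (adjusted p up to 0.166) and with a block for array set (0.37). Trim30a was the 1 of 28 interferon response genes past the threshold. It had 0.96, 0.57 and 0.87 in SAMP8-CR, against -0.48, -0.30 and -0.55 in SAMR1-CR, a log2 fold change of 1.24 (adjusted p = 0.000149).

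**Figure D2:**
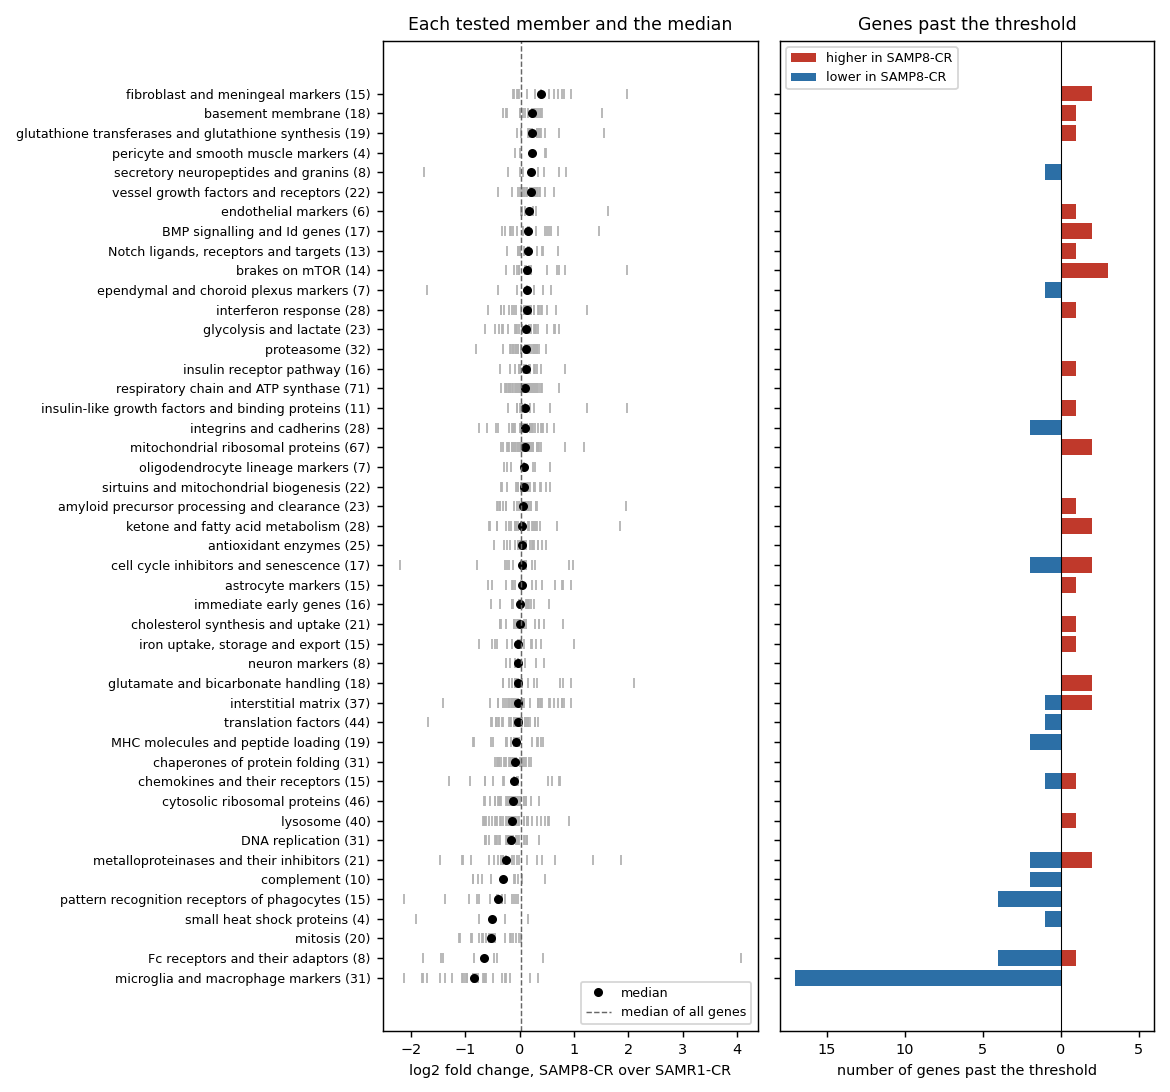
Gene lists in P8CR-R1CR. Left, the log2 fold change of every tested member (grey) and the list's median (black), with the number of tested members after each name and the median of all genes as a dashed line; right, the number of members past the threshold, lower genes to the left of 0 and higher genes to the right. Microglia and macrophage markers had the lowest median and 17 lower genes, and most other lists lay near the median of all genes.

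Few markers of the other cell types passed the threshold. Of 15 astrocyte markers 1 was higher, and the median was 0.04. Slc1a3 had 5.04, 4.93 and 5.49 in SAMP8-CR, against 5.02, 5.07 and 5.63 in SAMR1-CR, with overlapping groups. Gfap had 1.86, 1.70 and 1.71 in SAMP8-CR, against 3.31, 1.34 and 2.37 in SAMR1-CR, where the control samples differed more than the strains (log2 fold change -0.58, adjusted p = 0.453). The summed level of astrocyte markers was 202 to 257 in SAMP8-CR and 155 to 267 in SAMR1-CR. Neuron markers had 0 calls of 8 tested and oligodendrocyte lineage markers 0 of 7. All 6 tested endothelial markers had a positive log2 fold change, and their summed level was 8.24 to 8.88 in SAMP8-CR and 5.43 to 6.04 in SAMR1-CR, without overlap. The 1 that passed was Slco1a4, described below as a transporter, with a log2 fold change of 1.62. It is part of this sum, which was not taken without it. The other 5 had log2 fold changes of 0.02 for Emcn to 0.29 for Eng, and Pecam1, Tek and Kdr were detected on none of the 6 arrays. Ttr, the thyroxine carrier made by choroid plexus, had 0.54, 0.89 and 0.69 in SAMP8-CR, against 2.98, 1.56 and 2.68 in SAMR1-CR, and fell by 1.70 (adjusted p = 0.00349), while the median of the 7 markers of ependyma and choroid plexus was 0.13.

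Some transporters and metabolic enzymes were among the genes higher in SAMP8. Slc25a18, a mitochondrial glutamate carrier of astrocytes, had 4.17, 3.49 and 4.06 in SAMP8-CR, against 2.16, 1.42 and 1.80 in SAMR1-CR (log2 fold change 2.11 ± 0.23 SE, adjusted p = 0.000164). Slc4a4, the sodium bicarbonate cotransporter, had 0.84, 0.99 and 0.92 in SAMP8-CR, against 0.32, -0.48 and 0.06 in SAMR1-CR, a log2 fold change of 0.95 (adjusted p = 0.0226, and up to 0.0845 without SAMP8-CR replicates 1 to 3 or SAMR1-CR replicate 2 in turn, and 0.212 with a block for array set). They were the 2 of 18 genes of glutamate and bicarbonate handling past the threshold, and the list's median was -0.03. Bdh2, a cytosolic dehydrogenase of ketone body and iron metabolism, had 2.03, 1.40 and 1.75 in SAMP8-CR, against 0.24, -0.39 and -0.20 in SAMR1-CR, a log2 fold change of 1.85 (adjusted p = 0.000124). Gstm2, a glutathione transferase, had 3.13, 3.44 and 3.07 in SAMP8-CR, against 1.73, 1.94 and 1.31 in SAMR1-CR, a log2 fold change of 1.56, and its other probe had 1.25. It was the 1 of 19 glutathione genes past the threshold, although 18 of them had a positive log2 fold change. Inmt, an N-methyltransferase, had 1.23, 2.15 and 1.46 in SAMP8-CR, against 0.08, -0.59 and -0.39 in SAMR1-CR, a log2 fold change of 1.92 (adjusted p = 0.0074, and 0.168 with a block for array set).

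Slco1a4 and Slco1a5, organic anion transporters encoded next to each other, were both higher. Slco1a4 had 1.96, 1.23 and 1.80 in SAMP8-CR, against 0.21, -0.36 and 0.28 in SAMR1-CR, and Slco1a5 had 1.79, 1.62 and 1.55 in SAMP8-CR, against 0.07, -0.10 and 0.03 in SAMR1-CR. The log2 fold changes were 1.62 (SE 0.23) for Slco1a4 and 1.65 (SE 0.15) for Slco1a5. Because the 2 genes are close paralogs, the first 30 bases of their probes are shown with those of 2 histone H4 genes.
Slco1a4: agctatataatgacctgtgacaatttccca
Slco1a5: gcacattgcacttcctttgaatcatgagag
H4c6: atgtctggtcgtggtaagggaggaaaaggc
H4c9: aaaggaggaaaaggcctgggcaaaggcggc
In the best ungapped alignment of the whole probes, those of Slco1a4 and Slco1a5 matched at 17 of 49 bases. No probe was compared with the other gene's transcript, so this match cannot show whether the 2 signals are separate. The probe of H4c6 and the second probe of H4c9, which is the one shown, matched at 33 of 35 bases, so these signals cannot be assigned to 1 histone H4 gene each. Whether the signals of H4c1, H4c11 and H4c12 are separate was not tested. H4c6, H4c9, H4c1, H4c11 and H4c12 were all higher in SAMP8, with log2 fold changes of 1.42, 1.24, 1.12, 0.88 and 0.62 at their brightest probes and 1.12 at the second probe of H4c9. H4c1, H4c6 and H4c9 were chosen after their values were seen, and H4c12 lost its call without any of 7 samples (adjusted p up to 0.141). With a block for array set, all but H4c6 missed the threshold (adjusted p 0.0844 to 0.287).

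Inhibitors of the growth kinase mTOR and of its targets included 3 higher genes of 14 tested and no lower gene. Over all tested genes 1.6% were higher. Ddit4l, a stress-induced inhibitor of mTOR, had 3.02, 2.71 and 2.95 in SAMP8-CR, against 0.97, 0.79 and 1.02 in SAMR1-CR (log2 fold change 1.97 ± 0.15 SE, adjusted p = 8.23e-06). Eif4ebp2 and Eif4ebp1, which hold back the initiation of translation, rose by 0.71 and 0.84 (adjusted p 0.0061 and 0.0387). Ddit4, the paralog of Ddit4l, had 1.68, 1.73 and 1.51 in SAMP8-CR, against 1.36, 0.83 and 0.65 in SAMR1-CR, and missed the threshold (log2 fold change 0.69, adjusted p = 0.0702). The list's median was 0.14. Neither Eif4ebp gene passed with a block for array set (adjusted p 0.157 for Eif4ebp2 and 0.413 for Eif4ebp1), and Eif4ebp1 lost its call without any of 6 samples (adjusted p up to 0.152).

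Enzymes that cut the matrix and their inhibitors moved in both directions. Reck, a membrane-anchored inhibitor of metalloproteinases, had 2.05, 1.93 and 2.04 in SAMP8-CR, against 0.22, 0.02 and 0.17 in SAMR1-CR (log2 fold change 1.87 ± 0.14 SE, adjusted p = 8.23e-06). Timp4, a secreted inhibitor, had 1.61, 0.88 and 0.83 in SAMP8-CR, against 0.36, -0.73 and -0.36 in SAMR1-CR, a log2 fold change of 1.35 (adjusted p = 0.00971). The proteases Mmp12 and Adam8 fell, Adam8 by 0.89 (adjusted p = 0.0026), and both are expressed by macrophages. Timp1 and Timp3 had log2 fold changes of -1.07 and -1.05 and did not pass (adjusted p 0.0869 and 0.126). Among matrix genes Nid1, a linker of the basement membrane, had 1.00, 2.20 and 2.46 in SAMP8-CR, against 0.80, 0.10 and 0.23 in SAMR1-CR, a log2 fold change of 1.51 (adjusted p = 0.0176). Tgfbi, an adhesion protein also made by macrophages, had 0.96, 1.22 and 0.59 in SAMP8-CR, against 2.69, 2.00 and 2.35 in SAMR1-CR, and fell by 1.42 (adjusted p = 0.00299, but 0.0631 with a block for array set).

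Several matrix and growth factor genes varied between replicates in a shared way. Igf2, a growth factor of meningeal cells, had 0.79, 3.77 and 3.98 in SAMP8-CR, against 2.04, 0.26 and 0.32 in SAMR1-CR, and did not pass (log2 fold change 1.97, adjusted p = 0.149). Its log2 fold change was -0.09 with a block for array set and 2.95 without SAMP8-CR replicate 1, where it passed (adjusted p = 0.00165). Igfbp4, a binding protein of these factors, had 1.83, 2.38 and 2.12 in SAMP8-CR, against 1.64, 0.47 and 0.51 in SAMR1-CR (log2 fold change 1.24, adjusted p = 0.0358). In both genes replicate 1 of each strain lay nearest to the other strain. Another probe of Igfbp4 had a log2 fold change of 0.64 and did not pass (adjusted p = 0.127). Col1a2, of collagen I, and Mfap4, of microfibrils, rose by 0.77 and 0.82, and fibroblast and meningeal markers as a list had 2 higher genes of 15 and a median of 0.40, which turned to -0.25 with a block for array set and was 0.91 without replicate 1 of both strains. The summed level of that list was 87.8 to 156 in SAMP8-CR and 99.8 to 135 in SAMR1-CR, and its part in these differences was not tested. Nid1, Igfbp4, Col1a2 and Mfap4 did not pass with a block for array set (adjusted p 0.378, 0.345, 0.459 and 0.158). They were also lost without SAMP8-CR replicate 2, SAMP8-CR replicate 3, SAMR1-CR replicate 2 or SAMR1-CR replicate 3, and Mfap4 without 5 others too (adjusted p up to 0.152).

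Cell cycle inhibitors at 1 locus changed in opposite directions. Cdkn2a, which encodes p16 and p19Arf, had -0.17, -0.00 and -0.15 in SAMP8-CR, against 2.29, 1.90 and 2.10 in SAMR1-CR, and fell by 2.20 on the log2 scale (SE 0.19, adjusted p = 2.26e-05). A second probe of Cdkn2a fell by 0.53 (adjusted p = 0.018). Its neighbour Cdkn2b, which encodes p15, had 3.62, 4.11 and 3.92 in SAMP8-CR, against 3.19, 2.65 and 2.89 in SAMR1-CR, a log2 fold change of 0.98 (adjusted p = 0.00976). Cdkn1a, which encodes p21, overlapped between the groups, with 3.06, 3.69 and 3.49 in SAMP8-CR, against 3.34, 3.16 and 3.03 in SAMR1-CR (adjusted p = 0.583). Glb1, the lysosomal galactosidase behind the senescence stain, rose by 0.90 and Ets2, a transcription factor, fell by 0.78. Cdkn2b and Glb1 lost their calls without SAMP8-CR replicate 2 (adjusted p 0.0589 and 0.053) and with array set blocked (adjusted p 0.251 and 0.148). Ets2 lost its call without SAMP8-CR replicate 1, SAMR1-CR replicate 2 or SAMR1-CR replicate 3 (adjusted p up to 0.119).

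Genes of mitosis had 0 calls of 20 tested by limma, with a median of -0.52. Of the 20, 19 had a log2 fold change below 0, while 4434 of all 7913 tested genes had one above 0. The groups were without overlap in 7 of the 20, against 19.8% of all tested genes. Nusap1, a spindle protein, had 0.76, 0.57 and 0.57 in SAMP8-CR, against 1.67, 2.03 and 0.92 in SAMR1-CR (log2 fold change -0.90, adjusted p = 0.0524, unadjusted p = 0.00181). Prc1, which bundles the midzone, had 0.71, 0.61 and 0.68 in SAMP8-CR, against 2.04, 2.56 and 0.75 in SAMR1-CR (log2 fold change -1.12, adjusted p = 0.106). SAMR1-CR replicate 3 was the lowest of its group in both genes, and without it Nusap1, Plk1 and Tpx2 passed. DNA replication genes had 0 calls of 31 and a median of -0.16.

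Few genes of the large machineries of protein synthesis and respiration passed the threshold with CR serum. Cytosolic ribosomal proteins had 0 calls of 46 and a median of -0.13, respiratory chain and ATP synthase genes 0 of 71 and 0.10. Proteasome genes had 0 of 32 and 0.11, and antioxidant enzymes 0 of 25 and 0.04. The log2 fold change was positive in 9 of the 46, 48 of the 71, 21 of the 32 and 15 of the 25, and in 4434 of all 7913 tested genes. In the mitochondrial ribosome 2 of 67 genes were higher (2.99%, against 1.6% of all tested genes). Mrpl35 was detected in all 3 SAMP8-CR samples (0.46, 0.14 and 0.26) and in no SAMR1-CR sample (-0.81, -0.87 and -1.01), and was at least 1.73-fold higher (adjusted p = 1.43e-05). Mrpl14 rose by 0.82 (adjusted p = 0.0277, and up to 0.107 without SAMP8-CR replicates 1 to 3 or SAMR1-CR replicate 3 in turn, and 0.162 with a block for array set). Eef1a2, a tissue-restricted elongation factor, was the 1 of 44 translation factors past the threshold and was at least 2.60-fold lower.

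The remaining genes with the largest rises and falls belong to varied functions. Gpr137b-ps, whose symbol marks a pseudogene, had 1.93, 2.16 and 2.02 in SAMP8-CR, against -0.25, 0.27 and 0.18 in SAMR1-CR, a log2 fold change of 1.97 (adjusted p = 1.96e-05). Atxn1, which encodes ataxin-1, was detected in no SAMR1-CR sample and was at least 3.71-fold higher. Marchf8, a ubiquitin ligase whose substrates include the transferrin receptor, had 1.70, 1.51 and 1.21 in SAMP8-CR, against -0.31, -0.28 and -0.33 in SAMR1-CR, a log2 fold change of 1.78 (adjusted p = 2.01e-05). Tfrc, that transferrin receptor, had 1.84, 1.74 and 1.86 in SAMP8-CR, against 0.78, 0.98 and 0.70 in SAMR1-CR, and rose by 1.00 as the 1 of 15 iron genes past the threshold. Bmp6, a ligand of the BMP family, had 3.24, 2.48 and 3.06 in SAMP8-CR, against 1.80, 1.26 and 1.33 in SAMR1-CR (log2 fold change 1.46), and Id2, a target of these ligands, rose by 0.71 (adjusted p = 0.0387, and up to 0.152 without any of 7 samples, and 0.161 with a block for array set).

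Gdpd5, a glycerophosphodiesterase, and Emb, the adhesion glycoprotein embigin, were detected in every SAMR1-CR sample and in no SAMP8-CR sample, and were at least 5.36-fold and 3.40-fold lower. Gdpd5 had -0.67, -0.60 and -0.57 in SAMP8-CR, against 1.49, 2.00 and 2.05 in SAMR1-CR. Hspb1, a small heat shock protein, had 3.77, 4.15 and 4.39 in SAMP8-CR, against 5.14, 6.17 and 6.72 in SAMR1-CR, and fell by 1.91 (SE 0.33, adjusted p = 0.00475). Its relative Cryab had a log2 fold change of -0.75 (adjusted p = 0.14). Npy, neuropeptide Y, had 0.27, 0.44 and 0.12 in SAMP8-CR, against 2.17, 2.38 and 1.58 in SAMR1-CR, and fell by 1.77 (adjusted p = 0.000403). Rassf3 and Adssl1, an adenylosuccinate synthetase, fell by 1.60 and 1.58, and Erdr1 by 1.57 with a second probe at -1.25.

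A few members of 4 further lists passed. Of 28 integrins and cadherins 2 were lower. Cdh6, a cadherin, had -0.94, -0.75 and -0.87 in SAMP8-CR, against -0.19, -0.42 and -0.16 in SAMR1-CR, where all 3 samples and no SAMP8-CR sample had it detected, so that it was at least 1.25-fold lower (adjusted p = 0.0018). Itgb2, the beta chain of leukocyte integrins, had 0.11, -0.22 and -0.46 in SAMP8-CR, against 0.65, 0.24 and 0.82 in SAMR1-CR, and fell by 0.76 (adjusted p = 0.0451, and up to 0.181 without any of 6 samples). Insig2, which holds back cholesterol synthesis, rose by 0.79 as the 1 of 21 genes of that pathway past the threshold, and Nrarp, a target of Notch, rose by 0.70 as the 1 of 13 genes of Notch signalling. Hadh, of fatty acid oxidation, rose by 0.69 beside Bdh2 as 2 of 28 genes of ketone and fatty acid metabolism. Other probes of Insig2 and Hadh had log2 fold changes of 0.17 and 0.12 and did not pass (adjusted p 0.684 and 0.519). Insig2, Nrarp and Hadh missed the threshold without SAMP8-CR replicate 1 or SAMR1-CR replicate 2, and, in all, without 5, 3 and 9 of the samples in turn (adjusted p up to 0.148). With a block for array set Itgb2, Insig2 and Hadh missed it as well (adjusted p 0.462, 0.107 and 0.331).

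**Figure D3:**
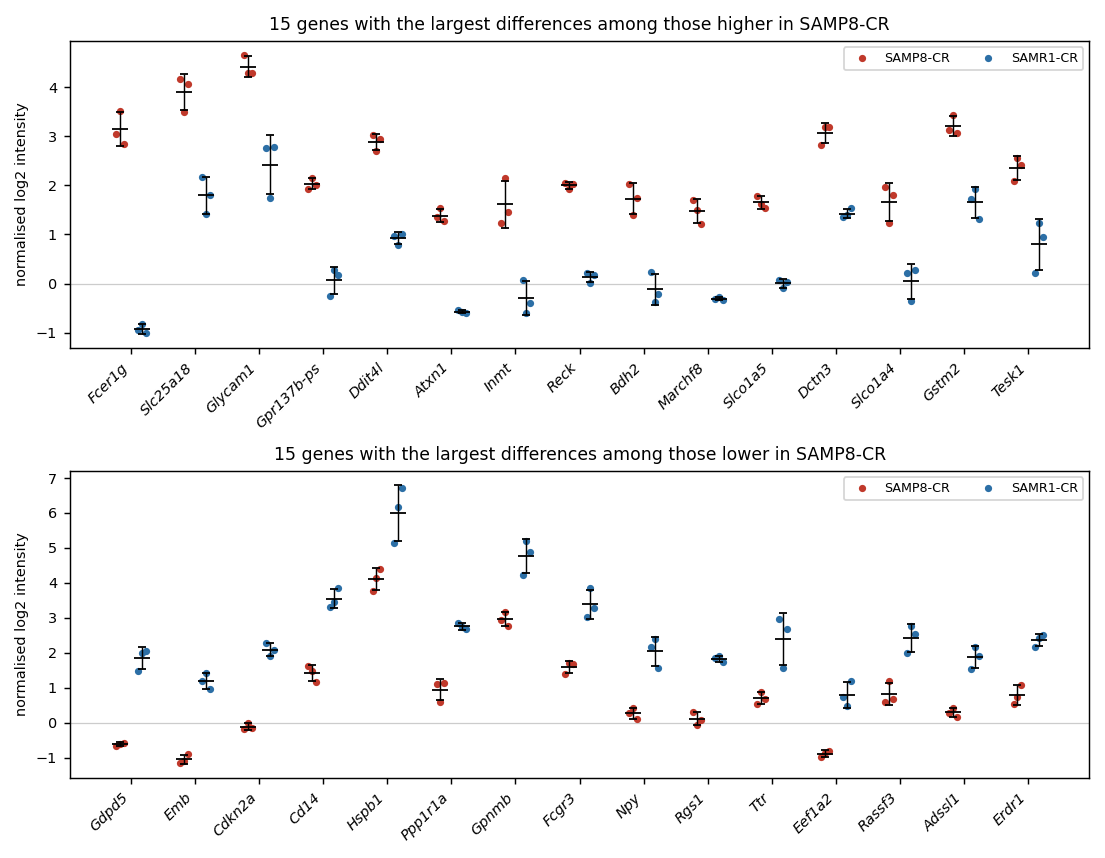
The 15 genes with the largest rises (top) and the 15 with the largest falls (bottom). Points are the normalised log2 intensities of the single samples, SAMP8-CR left and SAMR1-CR right for each gene, with the mean and SD (n = 3) as black bars. The groups do not overlap in any of the 30 genes, and Fcer1g shows the widest gap.

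Some genes that differed between the strains lay next to each other on the chromosomes. Gene order was taken from the annotation of GRCm38.p6, over the 7909 tested genes with a place there. Of the 251 genes past the threshold, 49 (19.5%) had a neighbour past the threshold, whereas of the genes not past it 5.65% did. They formed 26 neighbouring pairs, 19 in the same direction and 7 in opposite directions, in 23 runs. No test was made of this share. Capg, which caps actin filaments in macrophages, had 0.29, 0.80 and 0.54 in SAMP8-CR, against 1.94, 2.26 and 2.00 in SAMR1-CR, and fell by 1.52 beside Ggcx, which fell by 1.03 (adjusted p 0.0661 with a block for array set). Vgll4, a cofactor of TEAD transcription factors, had 1.05, 1.36 and 1.35 in SAMP8-CR, against -0.08, -0.24 and -0.00 in SAMR1-CR, and rose by 1.36 beside Timp4. Dctn3, of the dynein activator dynactin, lies between Rpp25l and Galt, a galactose enzyme. Dctn3 had 2.82, 3.18 and 3.19 in SAMP8-CR, against 1.36, 1.39 and 1.53 in SAMR1-CR, and the 3 genes rose by 1.64 for Dctn3, 1.20 for Rpp25l and 0.84 for Galt, which lost its call without SAMP8-CR replicate 2 or 3 (adjusted p up to 0.0878) and with a block for array set (0.279).

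Pairs in opposite directions held some of the largest changes. Ppp1r1a, an inhibitor of protein phosphatase 1, had 1.10, 0.60 and 1.13 in SAMP8-CR, against 2.86, 2.75 and 2.67 in SAMR1-CR, and fell by 1.82. Its neighbour Glycam1, a mucin-like selectin ligand, had 4.66, 4.29 and 4.29 in SAMP8-CR, against 2.76, 1.73 and 2.77 in SAMR1-CR, and rose by 1.99. Tesk1, a kinase that acts on cofilin, rose by 1.55 beside Cd72, a receptor of B cells and macrophages, which fell by 1.52, and Tesk1 missed the threshold with a block for array set (adjusted p = 0.0661). Marchf8 likewise lay beside Rassf4, which fell by 0.94, and Vps52 beside H2-K1. Vps52, of a complex for retrograde transport, was at least 1.74-fold higher by 1 probe, which no SAMR1-CR sample had detected, and its other probe had a log2 fold change of -0.65, both past the threshold (adjusted p 0.000296 and 0.00537). It was the 1 exception among 46 further probes of called genes, of which 45 had the direction of the gene's brightest probe and 22 passed in that direction.

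**Figure D4:**
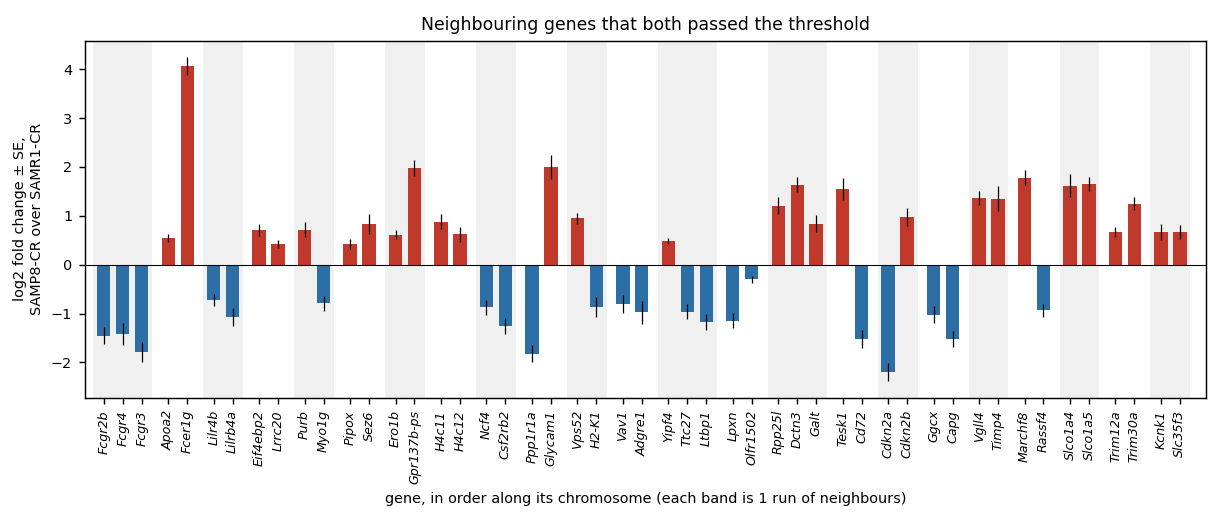
Neighbouring genes that both passed the threshold. Bars give the log2 fold change of SAMP8-CR over SAMR1-CR with its SE, genes stand in the order of the GRCm38.p6 annotation, and each band is 1 of the 23 runs. Of the 26 pairs 19 share a direction, and runs of 3 genes are Fcgr2b to Fcgr3, Yipf4 to Ltbp1 and Rpp25l to Galt.

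The same probes were then read in the cultures with AL serum, whose values did not choose them but share the estimate of the spread. Both fitted SAMP8-AL samples belong to the second array set and both fitted SAMR1-AL samples to the first, so that strain and array set cannot be told apart in them. Of the 174 probes higher with CR serum 173 had higher values in SAMP8-AL cultures than in SAMR1-AL cultures, and of the 172 lower probes 172 were lower, with 57.8% of all tested probes higher with CR serum and 61.1% with AL serum. The threshold was passed in the same direction by 108 and 111 of them, where 4.83% of all tested probes passed with AL serum. The median log2 fold change of the higher probes was 0.79 with CR serum and 0.77 with AL serum, and that of the lower probes -0.87 and -0.84. The pair of AL samples left out of the fit, SAMP8-AL replicate 1 and SAMR1-AL replicate 1, both of the first array set, had the same direction in 158 of the 174 higher and 167 of the 172 lower probes. Over all tested probes 44% were higher in SAMP8 in this pair, and its median difference was 0.58 for the higher and -0.87 for the lower probes.

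A difference of the strain effect between the sera was not detected for any probe (limma interaction, smallest adjusted p = 0.974, with 402 of 10680 probes or 3.76% at an unadjusted p under 0.05). This comparison rests on 2 fitted AL samples per strain. Array sets divide the strains differently in the sera, as SAMP8-CR replicate 1 is of the first set. Serum and array set therefore cannot be fully told apart in the interaction. Fcer1g had 3.03 and 2.70 in SAMP8-AL, against -0.87 and -0.78 in SAMR1-AL, and the interaction was 0.38 (SE 0.29). Reck had 2.19 and 2.04 in SAMP8-AL, against -0.18 and -0.14 in SAMR1-AL. Among the 251 genes 11 had an unadjusted interaction p under 0.05. Plek, a substrate of protein kinase C in leukocytes, had 1.12 and 0.87 in SAMP8-AL, against 0.99 and 1.52 in SAMR1-AL, whereas with CR serum it had 0.38, 0.70 and 0.70 in SAMP8-CR, against 1.54, 1.64 and 1.54 in SAMR1-CR (interaction -0.72, unadjusted p = 0.0194). Ttr had 0.47 and 0.63 in SAMP8-AL, against 1.22 and 1.34 in SAMR1-AL (interaction -0.97, unadjusted p = 0.0471), and its call with CR serum was lost with all 12 samples in the fit. As lists, microglia and macrophage markers had a median of -0.85 with CR serum and -1.15 with AL serum, and cytosolic ribosomal proteins -0.13 with CR serum and -0.77 with AL serum. Differences between these medians were not tested.

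**Figure D5:**
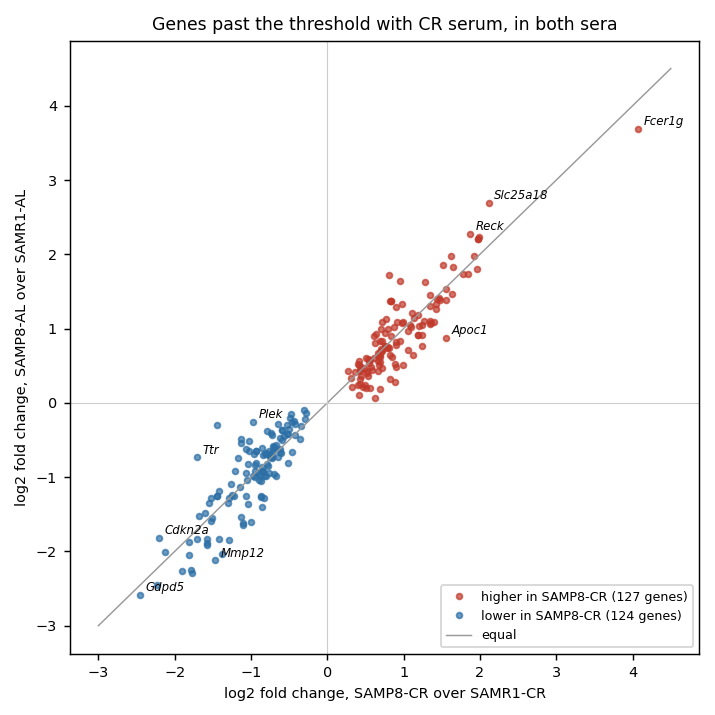
Strain differences with both sera. Each point is 1 of the 251 genes past the threshold with CR serum, placed by its log2 fold change of SAMP8-CR over SAMR1-CR (n = 3 each, horizontal) and of SAMP8-AL over SAMR1-AL (n = 2 each, vertical), with a line where both are equal. All 127 higher genes lie above 0 on the vertical axis and all 124 lower genes below it.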

How the data were processed

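Total RNA of astrocyte cultures was labelled and hybridised to Illumina MouseRef-8 v1.1 arrays. The authors deposited a linear bead intensity for each probe and sample, with no background subtracted, and with a detection p-value per probe. They also deposited a Z score, the log10 intensity centred and scaled within each array, which recomputation matched to within 5e-10. Genome build, array annotation version and the scanner software's settings are not given in the sources used here.

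Log2 intensities were centred and scaled within each array, then returned to log2 units by the arrays' average SD. One limma model (lmFit, eBayes with a trend, two-sided, limma 3.58.1 in R 4.3.3) was fitted to 10 samples in 4 groups, which share the estimate of the spread. SAMP8-AL replicate 1 and SAMR1-AL replicate 1 were left out because the study's own gene table does not list them. P-values were adjusted by Benjamini-Hochberg over the 10680 kept probes at 0.05. As nothing ties samples to animals, p-values measure the spread between these samples. Figures were drawn with matplotlib 3.10.9 in Python 3.11.15. A single gene is annotated to 20984 of the 24613 probes, several to 1 and none to 3628, and 20968 gene IDs were found in the RefSeq annotation of GRCm38.p6. Promoters come from that annotation and probe sequences from the study's supplementary table, which covers 83 of the called genes.

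Where a probe was detected on no array of a group, the change is given as a bound. The genes named were drawn by a rule. In each direction it takes the 15 that changed most among called genes with separate groups. It also takes every called member of 46 gene lists and the 3 members of each list with the smallest p. Called neighbours along a chromosome are included, as are the genes of the study's qPCR tables other than Ndst1. Those qPCR genes not described earlier are in the closing observations. Other names were chosen after values were seen. The comparison, the lists and their members were chosen with earlier results of these data known. The fit was tested on simulated data with known changes. The main fit had no block. Only in an alternative were the replicate numbers of the labels taken as pairs, because the study describes 3 independent experiments. Deviations of same-numbered CR samples from their group means correlated at 0.367, 0.191 and 0.338, those of differently numbered ones at -0.352 to 0.053. However, SAMR1-CR replicate 2 correlated at 0.9925 with SAMR1-AL replicate 3 and at 0.9768 with SAMR1-AL replicate 2. Alternatives were other samples in the fit, other normalizations (normexp with an offset of 16, quantile), other filters, blocks for replicate number and array set, each sample left out, and the methods' Z ratio, rebuilt from its description.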

Additional observations from a re-analysis of the deposited data

How the results depend on the processing

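None of the 104 named genes past the threshold changed direction under any alternative that tested them. Of these genes, 68 kept their call without any 1 of the 10 samples, and 35 in every alternative that tested them. The 35 include Fcer1g, Slc25a18, Reck, Ddit4l, Gdpd5, Emb, Cdkn2a, Cd14, Fcgr3 and Npy. Detection in every array of both groups left 80 of the 104 to test, without Fcer1g, Gdpd5 and Emb. Calls of single genes were not read under the Z ratio. The number of probes past the threshold was 173 when array set was a block, 95 in the first set alone, 230 with detection in every array of both groups, and 1340 by the methods' Z ratio and z test as rebuilt here from their description, against 346. Higher probes numbered 91 with the set block, 69 within the first set, 106 with detection in both groups, 271 with the replicate block and 793 by the Z ratio, against 174. Lower probes numbered 82 with the set block, 26 within the first set, 547 by the Z ratio and 111 without replicate 1 of both strains, against 172. The last alternative was chosen after seeing the data. Leaving out 1 sample gave 227 to 530 probes, 101 to 317 higher and 104 to 213 lower, with the highest total without SAMR1-CR replicate 1. Normexp with quantile normalization gave 157 higher and 218 lower, and quantile normalization alone 160 and 205. Lower microglia and macrophage markers numbered 10 with all 12 samples, 10 without replicate 1 of both strains, 3 within the first set, 11 without members named earlier, and 10 to 19 with 1 sample left out, against 17. The replicate block ended no call of a named gene and added 13, among them Nusap1, Irf8 and C3ar1. With all 12 samples in the fit, 0 of the called probes had an interaction past the threshold. The share of called genes with a called neighbour was 13.2% to 23.6% over all alternatives. The medians of lists changed little in most alternatives, but that of fibroblast and meningeal markers ran from -0.25 to 0.91 and that of ependymal and choroid plexus markers from -0.12 to 0.38. Causes were not tested. The smallest log2 fold change past the threshold was 0.273 in size, and dim genes are bounded by the background of the arrays.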

Other observations

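Further genes past the threshold are given here that were singled out after their values were seen and stand for no gene group. Dio2, the deiodinase by which astrocytes form active thyroid hormone, had 1.93, 1.84 and 1.45 in SAMP8-CR, against 0.33, 0.73 and 0.58 in SAMR1-CR, a log2 fold change of 1.19 (adjusted p = 0.0108 from limma). Thrsp, a thyroid hormone responsive gene of lipid synthesis, had 1.54, 1.05 and 0.76 in SAMP8-CR, against 0.42, -0.30 and 0.05 in SAMR1-CR (log2 fold change 1.06, adjusted p = 0.016). Crym, which binds thyroid hormone in the cytosol, had 1.92, 2.39 and 1.49 in SAMP8-CR, against 3.75, 3.43 and 3.17 in SAMR1-CR, and fell by 1.52 (adjusted p = 0.00299). The groups did not overlap in any of these 3 genes, as in all called genes. With a block for array set, Dio2 and Crym missed the threshold (adjusted p 0.0612 and 0.0552), and so did Dio2 without SAMP8-CR replicate 2 (0.0539) and Thrsp without SAMP8-CR replicate 1 or SAMR1-CR replicate 2 (up to 0.0733).

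Apoc1, an apolipoprotein, had 1.94, 2.04 and 1.49 in SAMP8-CR, against 0.54, 0.41 and -0.14 in SAMR1-CR (log2 fold change 1.55, with 1.68 for its other probe). Dbp, a transcription factor with circadian output, had 3.93, 3.59 and 4.42 in SAMP8-CR, against 2.16, 2.41 and 2.95 in SAMR1-CR (log2 fold change 1.48, adjusted p = 0.00282, and 0.0649 with a block for array set). Lpl, lipoprotein lipase, had 0.17, 1.06 and 0.79 in SAMP8-CR, against 1.88, 2.22 and 2.27 in SAMR1-CR, and fell by 1.45 (adjusted p = 0.00526). Lgals3, a galectin of activated microglia, had 3.30, 3.93 and 3.75 in SAMP8-CR, against 4.76, 5.28 and 4.81 in SAMR1-CR, and fell by 1.29 (adjusted p = 0.00335).

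Of the genes in the study's qPCR tables, Ndst1 was not looked up. The others that are not described above did not pass the threshold in P8CR-R1CR. Sod1, Nudt1 and Gpx3, which act against oxidants, had log2 fold changes of 0.34, 0.26 and 0.33, and Atox1 had 0.01. The respiratory genes Ndufa1, Uqcrh, Cox6b1 and Atp5e had 0.05, 0.29, 0.22 and 0.17, and Gpx8 had 0.25 (adjusted p 0.345 to 0.979 over these 9 genes).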
